A study of Mus musculus with 20 samples.

Results

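The genes described here are the corticosteroid receptors and the proteins that set how those receptors see and use their hormone in the arcuate nucleus (ARC) of mice given corticosterone (Cort). The 10 genes were chosen by name and role: the receptors Nr3c1 and Nr3c2, the Cort-regenerating enzyme Hsd11b1, the cochaperones Fkbp5, Fkbp4, Ptges3 and Stip1, the coactivators Ncoa1 and Ncoa2, and the corepressor Ncor1. All 10 were found among the 22048 genes of the count tables. Male C57Bl/6J mice, listed as 10 weeks old and singly housed, drank water with Cort at 75 μg/ml in 1% ethanol or with 1% ethanol alone (vehicle) for 2 days or 4 weeks, with 5 libraries in each of the 4 groups. The 2 day mice were killed straight after treatment, whereas all 4 week mice, vehicle and Cort alike, were fasted for 16 h and refed for 24 h first. The whole ARC was laser captured from each brain, and RNA was amplified before sequencing. The study left out 2 vehicle and 1 Cort library of each dataset as outliers of a principal component analysis, so the comparisons below rest on 3 vehicle and 4 Cort libraries unless all 10 are named. Libraries are called C01 to C10 within a dataset, as in the count tables, and their groups rest on the read table of the study, since the sample labels do not name these columns.

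Cort enters cells freely and binds to 2 nuclear receptors, the glucocorticoid receptor (GR, Nr3c1) and the mineralocorticoid receptor (MR, Nr3c2). Unliganded GR waits in the cytoplasm on HSP90, where the immunophilin FKBP5 lowers its affinity for hormone and FKBP4 couples it to transport towards the nucleus. In the nucleus the receptor recruits coactivators or corepressors, and Fkbp5 itself is a widely used GR target gene that closes a short negative feedback loop. The ARC holds the AgRP/NPY and POMC neurons that regulate feeding, and GR is present in them.

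Libraries held 2487063 to 5748223 counted reads in the 2 day dataset and 1065776 to 5196364 in the 4 week dataset, so 3 counts, the limit below which a level was not read, equalled 0.522 to 1.21 and 0.577 to 2.82 counts per 1000000 reads (CPM). Neuronal markers (Snap25, Rbfox3, Syt1, Tubb3, Stmn2) had a summed level between 3006 and 3618 CPM in the 2 day libraries and between 2410 and 3274 CPM in the 4 week libraries. The ARC neuropeptide list (Agrp, Npy, Pomc, Cartpt, Ghrh, Kiss1) lay between 1160 and 2939 CPM and between 294.7 and 1331 CPM, with at most 1 of its 6 genes at 0 in any library. Pituitary markers stayed at or below 39.5 CPM at 2 days and 5.45 CPM at 4 weeks. These are bulk samples, so fewer cells of a type and less RNA per cell cannot be told apart.

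The members spanned a wide range of abundance. Per kb of exon, Stip1, which hands client proteins from HSP70 to HSP90, was the highest in the 2 day dataset with a median of 145 CPM per kb over 10 libraries, followed by Fkbp4 with 93.8, Ptges3 (p23, which stabilizes the hormone-binding form of the complex) with 50.8, Ncoa1 with 24.0, Nr3c1 with 22.3, Ncor1 with 15, Ncoa2 with 13.5, Nr3c2 with 5.10, Fkbp5 with 2.99 and Hsd11b1 with 2.32. Of the 9 pairs of neighbours in this order, 5 had overlapping ranges. Ranges were apart between Fkbp4 and Ptges3, Ptges3 and Ncoa1, Nr3c1 and Ncor1, and Ncoa2 and Nr3c2, so the group of Nr3c2, Fkbp5 and Hsd11b1 lay below the other 7 in every library. In the 4 week dataset the medians ran from 114 CPM per kb for Stip1 and 53.0 for Fkbp4 to 3.07 for Fkbp5, 2.49 for Nr3c2 and 0 for Hsd11b1. There Nr3c1 (27.4) stood ahead of Ncoa1 (26.5), and all 9 neighbouring pairs overlapped. The level of Ptges3 is uncertain, since 19.6% of its transcript windows of read length are shared with the pseudogenes Ptges3-ps and Gm11893.

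**Figure D1:**
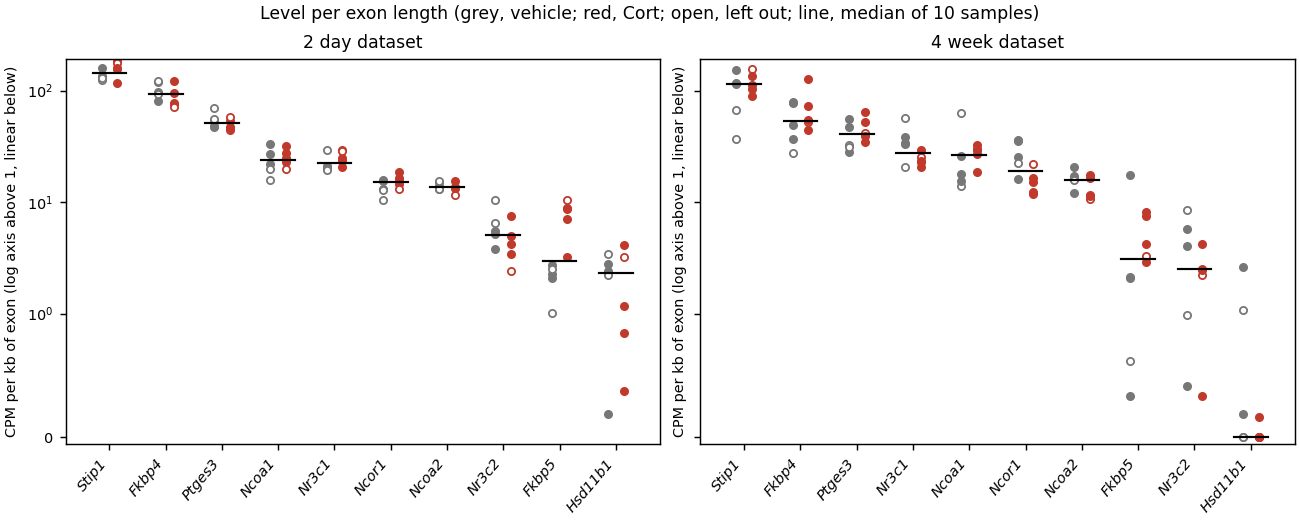
Level of each gene in CPM per kb of exon (y axis, log above 1 and linear below) in the 10 libraries of each dataset, ordered by median (line); grey is vehicle, red is Cort and open symbols are libraries the study left out. Stip1, Fkbp4 and Ptges3 lead in both datasets, with medians of 145, 93.8 and 50.8 CPM per kb at 2 days.

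Fkbp5 (ENSMUSG00000024222) lies at chr17:28399094-28517527 on the minus strand of GRCm38 and Fkbp4 (ENSMUSG00000030357) at chr6:128429735-128438677, also on the minus strand. The 250 bases before the RefSeq start of each, taken from RefSeq (GRCm38.p6, chr17:28486150-28486399 and chr6:128438657-128438906, both minus strand), are shown because these paralogous immunophilins act on the same receptor and gave different readouts in the 2 day comparison. The Fkbp5 window lies inside the gene span above, which also holds transcripts that start further upstream. Capitals mark a match to GAANNTTC, the core of a heat shock element.

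Fkbp5: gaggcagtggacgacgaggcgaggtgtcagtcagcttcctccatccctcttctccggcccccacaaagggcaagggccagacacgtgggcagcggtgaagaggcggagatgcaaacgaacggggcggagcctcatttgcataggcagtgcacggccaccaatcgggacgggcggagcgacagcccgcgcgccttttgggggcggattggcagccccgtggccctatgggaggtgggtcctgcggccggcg
Fkbp4: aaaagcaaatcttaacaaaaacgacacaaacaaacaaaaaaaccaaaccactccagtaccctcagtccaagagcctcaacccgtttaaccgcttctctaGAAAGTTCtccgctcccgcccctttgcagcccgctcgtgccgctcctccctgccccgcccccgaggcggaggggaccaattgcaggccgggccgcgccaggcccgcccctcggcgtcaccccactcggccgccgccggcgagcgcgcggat

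RefSeq promoter windows of 300 bases, 250 before and 50 after the start, were found for 8 of the 10 genes. GAANNTTC was present on either strand in 7.86% of 32851 windows, and among the members in Fkbp4 and Nr3c2. The inverted repeat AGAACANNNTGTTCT, a full glucocorticoid response element, occurred in 3 windows (0.00913%) and in none of the members' windows, and its single arm AGAACA in 19%, among them those of Ncoa1 and Ncor1. The Ncoa1 match did not lie within the 250 bases before its start. For Ncor1, the arm was found before the start at chr11:62438516-62438765, and not in its other window at chr11:62457333-62457582. Both windows lie inside the Ncor1 gene span, chr11:62316426-62458541 on the minus strand. The window with the arm belongs to the start further downstream. These counts describe the letters of the windows only.

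After 2 days, Fkbp5 was the member whose groups stood apart. Its level was 25.9, 21.6 and 19.7 CPM in the vehicle libraries C02, C04 and C05, and 82.3, 67.0, 30.7 and 84.3 CPM in the Cort libraries C01, C03, C06 and C10. The lowest Cort library (C06) was still above the highest vehicle library. Means were 22.4 ± 3.16 CPM (SD, n = 3) for vehicle and 66.1 ± 24.8 CPM (SD, n = 4) for Cort, a log2 fold change of 1.57 (SE 0.35, 95% interval 0.84 to 2.29), which is 2.96-fold. Its unadjusted P of 0.000212 was the 10th smallest of 12309 genes tested. The edgeR quasi-likelihood test with Benjamini-Hochberg adjustment gave Padj = 0.243, above the limit of 0.1 that the study set on DESeq2 values. With DESeq2, the study lists Fkbp5 among its genes raised at 2 days. The 3 libraries left out by the study lay on the same sides, with vehicle C07 and C09 at 9.52 and 24.0 CPM and Cort C08 at 98.7 CPM. Over all 10 libraries the fold was 3.63 (log2 1.86, SE 0.34, Padj = 0.0906 with edgeR) and the groups did not overlap, with an exact permutation p of 0.0079, the smallest that 5 against 5 can give.

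Whether Fkbp5 counted as called at 2 days changed with the tool, the low-count filter and the libraries used. DESeq2 on the same 7 libraries gave Padj = 0.00691, edgeR without the low-count filter gave 0.0242, and limma voom with quality weights over all 10 libraries gave 0.103. Without C06, the Cort library with the lowest Fkbp5, edgeR gave a log2 fold change of 1.81 and Padj = 0.00946. Since C06 was picked here for its own Fkbp5 value, that fit is no test of a rise. Leaving out any other kept library gave an edgeR Padj between 0.347 (without C03) and 0.999 (without C05). Over these fits, and with each kept library left out in turn, the log2 fold change lay between 1.43 and 1.86.

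Other transcripts moved beside Fkbp5 among the 7 libraries. Summed oligodendrocyte markers (Mog, Mag, Mobp, Cnp) were 167.7 to 204.5 CPM in vehicle and 292.0 to 347.6 CPM in Cort, with 1 of the 4 called, and the ARC neuropeptide list was 1160 to 1505 and 1655 to 2205 CPM. No oligodendrocyte marker was at 0 in any 2 day library. Over all 10 libraries both lists overlapped (oligodendrocytes 167.7 to 501.1 against 292.0 to 483.4, neuropeptides 1160 to 2348 against 1655 to 2939) whereas Fkbp5 did not. Vehicle C07, with 501.1 CPM of oligodendrocyte markers and 2348 CPM of neuropeptide transcripts, had the lowest Fkbp5 of the dataset. Their part in the result was not tested further. Agrp belongs to the neuropeptide list, and the study names it among the genes raised by the shorter treatment. A shift of that list is therefore no measure of cell content alone.

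None of the 10 members was called after 2 days by edgeR on the kept libraries, against 8 of 12309 genes (0.065%), and 1 member, Fkbp5, had an unadjusted P below 0.05 (5.97% of all genes). DESeq2 called 1 member, Fkbp5, against 0.385% of genes, and edgeR on all 10 libraries called Fkbp5 as 1 of its 2 genes (0.0167%). Fkbp5 was also the single member whose groups did not overlap, both among the kept libraries, where 6.63% of genes did not, and among all 10, where 0.801% did not. Across the members the median log2 fold change was 0.03, beside 0.02 for all genes tested, and the median absolute log2 fold change was 0.10, beside 0.26.

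**Figure D2:**
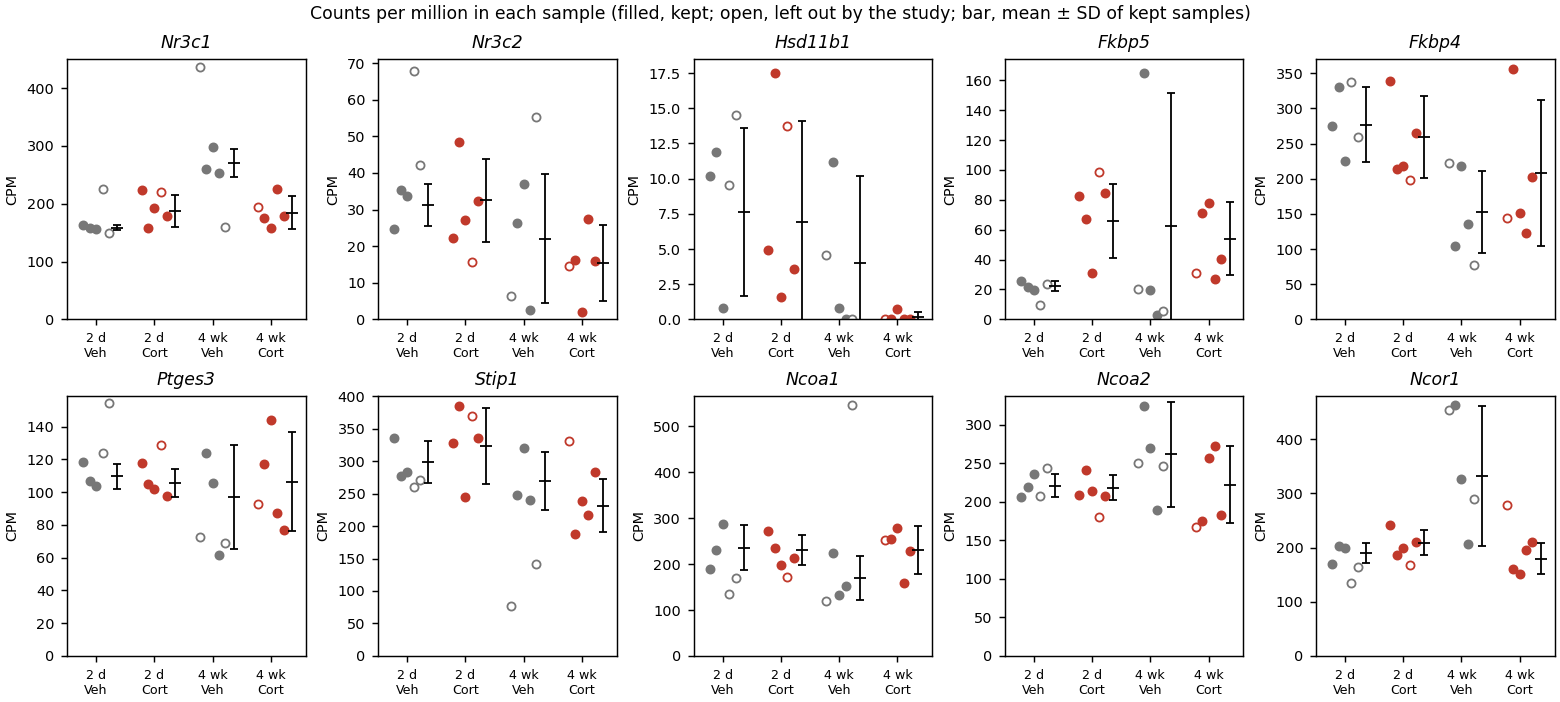
CPM of each gene (y axis, linear from 0, scaled separately by dataset) in vehicle (grey) and Cort (red) libraries at 2 days and 4 weeks; filled symbols were kept and open symbols left out by the study, and bars give the mean ± SD of kept libraries, ending at 0 where they would pass below it. Fkbp5 in the 2 day Cort libraries, at 30.7 to 98.7 CPM, lies above all 2 day vehicle libraries, at 9.52 to 25.9 CPM, and 1 of the 4 week vehicle libraries reaches 164.7 CPM.

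The GR and MR genes and Hsd11b1 did not pass the test after 2 days. Nr3c1 (ENSMUSG00000024431, chromosome 18) was at 163.4, 157.4 and 155.5 CPM in vehicle and 223.8, 157.9, 192.0 and 179.0 CPM in Cort. The groups overlapped, and the log2 fold change was 0.26 (95% interval -0.09 to 0.60, edgeR Padj = 0.889), which allows between a 0.939-fold and a 1.52-fold level. MR transcripts were less abundant. Nr3c2 (ENSMUSG00000031618, chr8:76899442-77245012) averaged 31.2 ± 5.78 CPM in vehicle (SD, n = 3) and 32.6 ± 11.4 CPM in Cort (SD, n = 4), with a log2 fold change of 0.06 (95% interval -0.67 to 0.80, edgeR Padj = 0.989) that became -0.48 over all 10 libraries, where the left-out vehicle C07 had 67.8 CPM and the left-out Cort C08 had 15.6 CPM. Hsd11b1 (ENSMUSG00000016194, chr1:193221634-193264075), which regenerates active Cort from its 11-dehydro form, was the least abundant member and spread widely between libraries. It was at 0.813 to 11.9 CPM in kept vehicle libraries and 1.61 to 17.5 CPM in kept Cort libraries. Its counts ran from 4 (vehicle C05, near the limit of 3) to 55. No direction can be read for it, since leaving out single libraries moved its log2 fold change between -1.16 and 0.34.

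Cochaperones other than Fkbp5 showed small differences at 2 days. Fkbp4 was at 274.4, 331.1 and 225.5 CPM in vehicle and 339.7, 213.5, 218.6 and 265.3 CPM in Cort, so the groups overlapped throughout. Its log2 fold change was -0.09 (95% interval -0.45 to 0.28, edgeR Padj = 0.973), an interval that ends below the lower end of that of Fkbp5. Stip1 (ENSMUSG00000024966, chr19:7020702-7039967) had a log2 fold change of 0.12 (-0.20 to 0.45) and Ptges3 (ENSMUSG00000071072, chr10:128058954-128077272) of -0.04 (-0.44 to 0.35). Among coregulators, Ncoa1 (SRC-1; ENSMUSG00000020647, chr12:4247362-4477182), a histone acetyltransferase-linked coactivator, had a log2 fold change of -0.03 (-0.38 to 0.33), and Ncoa2 (TIF2/GRIP1; ENSMUSG00000005886, chr1:13139105-13374083) of -0.01 (-0.32 to 0.30). The corepressor Ncor1 (ENSMUSG00000018501, chr11:62316426-62458541), which brings histone deacetylase 3 to its targets, had 0.15 (-0.19 to 0.48). For these 6 genes the 95% intervals allowed no more than a 1.39-fold rise and no more than a fall to 0.731-fold.

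The members differed widely in how much they varied between libraries. Over the 7 kept libraries at 2 days, the coefficient of variation of CPM was 6.54% for Ncoa2 and 7.34% for Ptges3, where the median gene had 32.7% and 0.609% and 0.934% of genes tested varied less, and it was 61.8% for Fkbp5 and 85.3% for Hsd11b1. At 4 weeks the median gene had 61.6%, Stip1 17.6% and Nr3c1 23.4%, while Fkbp5 had 94.1% and Nr3c2 71.1%. The fold between the highest and lowest kept library was 52.5 for Fkbp5 at 4 weeks and 4.28 at 2 days. These spreads hold the Cort effect as well as the noise. Levels differed too: by mean CPM at 2 days, Ncoa2 lay above 95.9% of genes, Ptges3 above 90.8%, Fkbp5 above 78.7% and Hsd11b1 above 55.4%. The part of level in the spreads was not tested.

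After 4 weeks, Fkbp5 did not pass the test, and its vehicle libraries spread more than its Cort libraries. It was at 164.7, 19.7 and 3.14 CPM in vehicle C02, C03 and C04, and at 71.2, 77.6, 27.3 and 40.3 CPM in Cort C07 to C10. Vehicle C02 was the highest library of all, on 487 counts, while C04 had 7. The means were 62.5 ± 88.9 CPM (SD, n = 3) and 54.1 ± 24.2 CPM (SD, n = 4), with an edgeR log2 fold change of -0.22 (SE 0.88, 95% interval -2.08 to 1.64, Padj = 0.995). The difference in mean log2 CPM had the other sign, 1.10. Of the left-out libraries, vehicle C01 and C05 were at 20.2 and 5.87 CPM and Cort C06 at 30.9 CPM, and over all 10 libraries the edgeR log2 fold change was 0.19 and the groups overlapped.

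A single vehicle library decides that 4 week value. Vehicle libraries other than C02 ranged from 3.14 to 20.2 CPM (4 libraries) and all 5 Cort libraries from 27.3 to 77.6 CPM. Since C02 was set aside for its own Fkbp5 value, this separation is no test of a rise. The share of all genes that would separate in this way was not computed. Without C02 the edgeR log2 fold change was 2.24 (Padj = 1 on 2 against 4 libraries), and leaving out any other kept library gave values between -0.78 and -0.003. C02 also held the most Hsd11b1 (11.2 CPM, 33 counts), Ncor1 (463.6 CPM) and Ncoa2 (325 CPM) of the 4 week dataset. Its summed markers of oligodendrocytes (442.7 CPM) and choroid plexus (153.5 CPM) and its neuropeptide list (1331 CPM) were the highest there too. Its other marker lists were not.

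**Figure D3:**
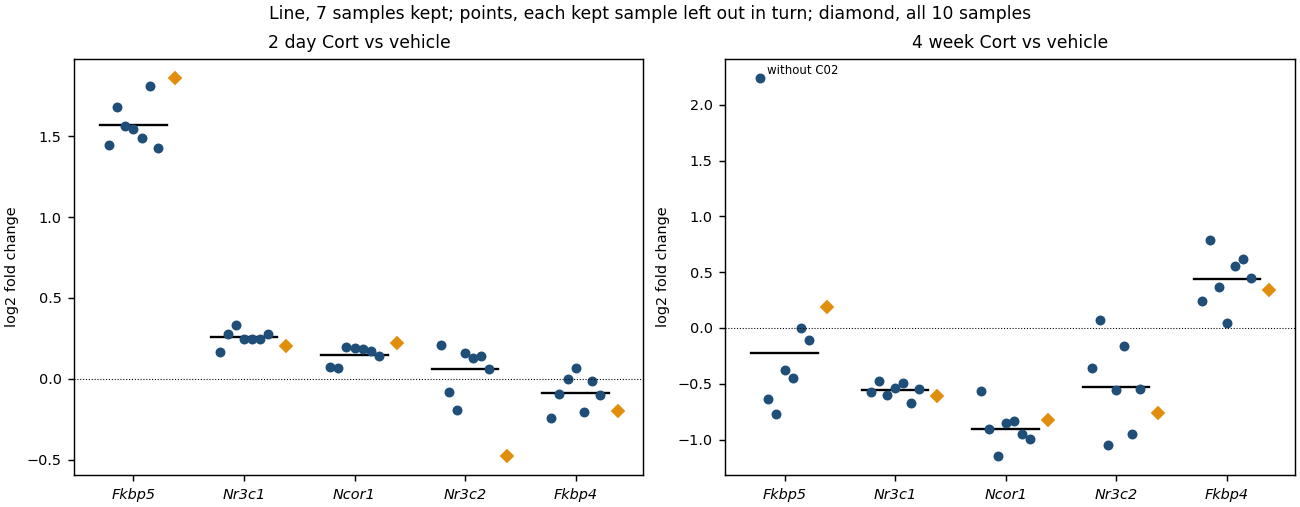
edgeR log2 fold change of 5 genes (y axis) with the 7 kept libraries (line), with each of them left out in turn (points) and with all 10 (diamond), at 2 days (left) and 4 weeks (right). Fkbp5 moves from -0.22 to 2.24 when vehicle C02 is left out at 4 weeks and stays between 1.43 and 1.86 at 2 days, and Nr3c1 and Ncor1 stay below 0 at 4 weeks in every fit drawn.

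Nr3c1 and Ncor1 had the smallest P values of the members at 4 weeks, both with lower Cort means, and neither was called. Nr3c1 was at 259.7, 297.9 and 253.0 CPM in vehicle and 176.2, 158.6, 225.7 and 178.9 CPM in Cort, and the kept groups did not overlap. Means of 270 ± 24.2 (SD, n = 3) and 185 ± 28.7 CPM (SD, n = 4) gave a log2 fold change of -0.56 (SE 0.28, 95% interval -1.16 to 0.04, edgeR Padj = 0.99), and the exact permutation p of 0.057 was the smallest 3 against 4 can give. With all 10 libraries the groups overlapped, since left-out vehicle C05 had 160.2 CPM, while left-out vehicle C01 had 436.0 CPM, above every other 4 week library. The log2 fold change over all 10 was -0.61 (Padj = 0.991 with edgeR). Ncor1 was at 463.6, 325.7 and 206.9 CPM in vehicle and 159.5, 150.5, 194.8 and 210.9 CPM in Cort. Vehicle C04 fell within the Cort range, and the log2 fold change of -0.90 (SE 0.31, 95% interval -1.56 to -0.25, Padj = 0.944 with edgeR) ranked 121 of 11211 genes by its unadjusted P of 0.0103. Leaving out single libraries kept Ncor1 between -1.15 and -0.57 and Nr3c1 between -0.67 and -0.48. Ncor1 shares 0.6% of its exon bases with Pigl and Ttc19 on the other strand.

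Some summed marker levels also stood apart among the kept 4 week libraries, where 6.53% of single genes did. Among kept 4 week libraries the neuronal list was 2576 to 2691 CPM in vehicle and 2880 to 3163 CPM in Cort, the astrocyte list (Gfap, Aqp4, Slc1a3, Slc1a2, Aldh1l1) 2634 to 2675 and 2950 to 4018 CPM, and the neuropeptide list 905.5 to 1331 and 431.4 to 769.1 CPM. All 3 overlapped over all 10 libraries, with vehicle at 2410 to 3274, 1764 to 3831 and 294.7 to 1331 CPM. Of 5 markers tested in each list, 3 neuronal, 3 astrocyte and 1 neuropeptide gene had higher Cort levels, and 0, 0 and 1 were called. Every other marker list overlapped among the kept libraries. Npy belongs to the neuropeptide list, and the study reports it as reduced by Cort in this dataset, where it names fasting and refeeding as an influence. The level of that list is therefore no measure of cell content alone. The part of cell composition in the Nr3c1 and Ncor1 differences was not tested.

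Other members at 4 weeks had wide intervals. Nr3c2 ranged from 2.14 to 37.0 CPM over kept libraries, on 6 to 92 counts, with a log2 fold change of -0.53 (95% interval -2.80 to 1.74). Hsd11b1 had no count in 6 of 10 libraries and at most 3 counts in 8, below the filter, so it was not tested and no fold is given; all Cort libraries held 0 to 3 counts. Fkbp4 had a log2 fold change of 0.44 (-0.42 to 1.29), Ptges3 of 0.12 (-0.78 to 1.02), Stip1 of -0.23 (-0.82 to 0.36), Ncoa1 of 0.43 (-0.26 to 1.12) and Ncoa2 of -0.25 (-0.89 to 0.39). No edgeR Padj of the 9 members tested was below 0.1, against 5 of 11211 genes (0.0446%), and 1, Ncor1, had an unadjusted P below 0.05, where 4.91% of genes had. DESeq2 called none of them (0.637% of genes were called), with 2 at an unadjusted P below 0.05, and edgeR on all 10 called none either (0.00962%). Nr3c1 was the single member of the 9 whose kept groups did not overlap (6.53% of genes), and over all 10 libraries none was apart (0.942% of genes). The median log2 fold change was -0.23 over the 9 members and 0.04 over all genes.

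**Figure D4:**
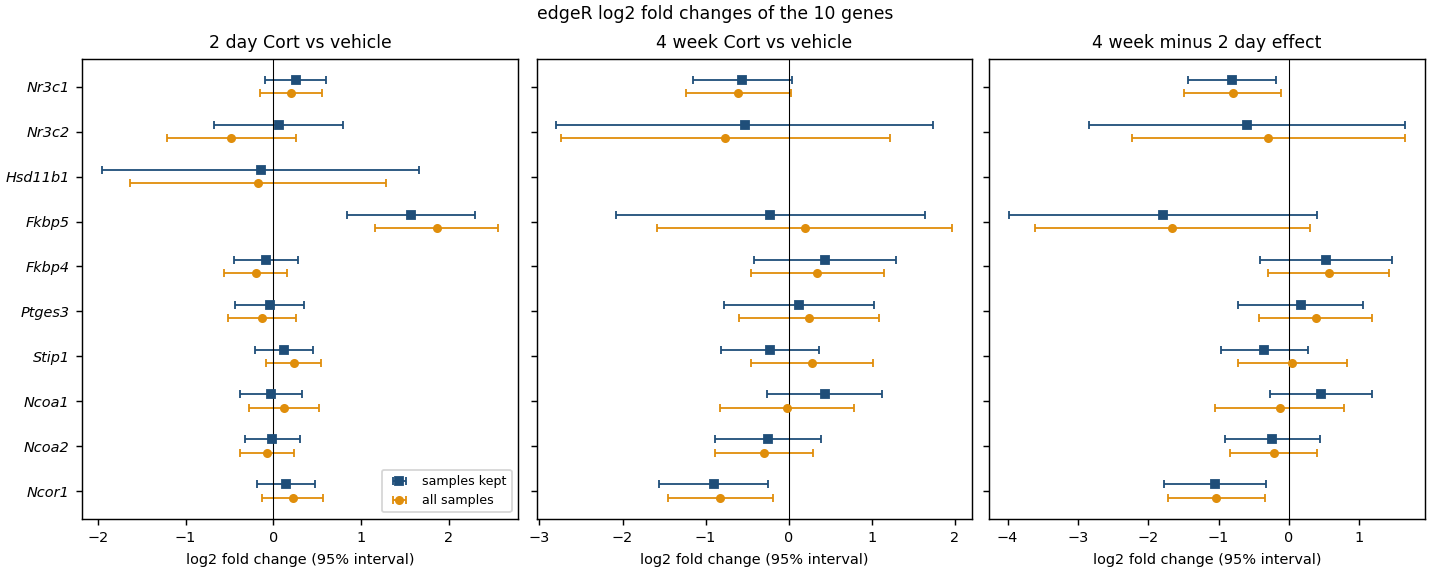
edgeR log2 fold change with its 95% interval (x axis) for each gene in the 2 day comparison, the 4 week comparison and their difference, for the kept libraries (squares) and all libraries (circles). Fkbp5 at 2 days is the only member with an interval clear of 0 in that panel (0.84 to 2.29), while Ncor1 (-1.56 to -0.25) is the only one at 4 weeks. Hsd11b1 is drawn only at 2 days.

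The Cort effects at 4 weeks and 2 days were set against each other in a single edgeR fit of the 14 kept libraries. Section thickness, slides, laser system, sequencer and the fast all differed between the datasets, so duration and these cannot be told apart. The difference in log2 fold change (4 week minus 2 day) was -0.81 for Nr3c1 (95% interval -1.44 to -0.18, unadjusted P = 0.0138 and Padj = 0.714 with edgeR) and -1.05 for Ncor1 (-1.77 to -0.32, unadjusted P = 0.00672 and Padj = 0.714 with edgeR). Fkbp5 had a difference of -1.79 (-3.98 to 0.40, Padj = 0.851 with edgeR), which became 0.67 when 4 week vehicle C02 was left out. Thus 0 of 10 members were called, against 2 of 12777 genes (0.0157%), and 2 had an unadjusted P below 0.05, against 6.49% of all genes. DESeq2 called 0 members as well, with 2 at an unadjusted P below 0.05. With all libraries edgeR also called 0, with 3 below 0.05: Nr3c1, Ncor1 and Hsd11b1. Hsd11b1 had at most 3 counts in 8 of 10 libraries at 4 weeks, so no difference is read for it.

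Ratios within a library do not depend on scaling between libraries. The log2 ratio of Fkbp5 to Fkbp4 counts at 2 days was -3.61 ± 0.28 in vehicle (SD, n = 3) and -2.05 ± 0.55 in Cort (SD, n = 4), a difference of 1.57 with an exact permutation p of 0.057, the smallest possible. Over all 10 libraries the difference was 2.04 (exact permutation p = 0.0079), and every Cort library had a higher ratio than every vehicle library. At 4 weeks the difference was 0.77 (exact permutation p = 0.63) with vehicle C02 as the only library where Fkbp5 counts exceeded Fkbp4 counts, at 0.66 on the log2 scale. The log2 ratio of Nr3c1 to Nr3c2, GR to MR, was 2.36 ± 0.32 in vehicle and 2.58 ± 0.68 in Cort at 2 days, a difference of 0.22 (exact permutation p = 0.63). At 4 weeks the same ratio was 4.25 ± 1.91 and 4.02 ± 1.42, a difference of -0.23 (exact permutation p = 0.97). Over all 10 libraries the GR to MR differences were 0.70 (exact permutation p = 0.13) and -0.09 (exact permutation p = 0.94). These are ratios of counts, so transcript length is part of their level and not of their differences.

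**Figure D5:**
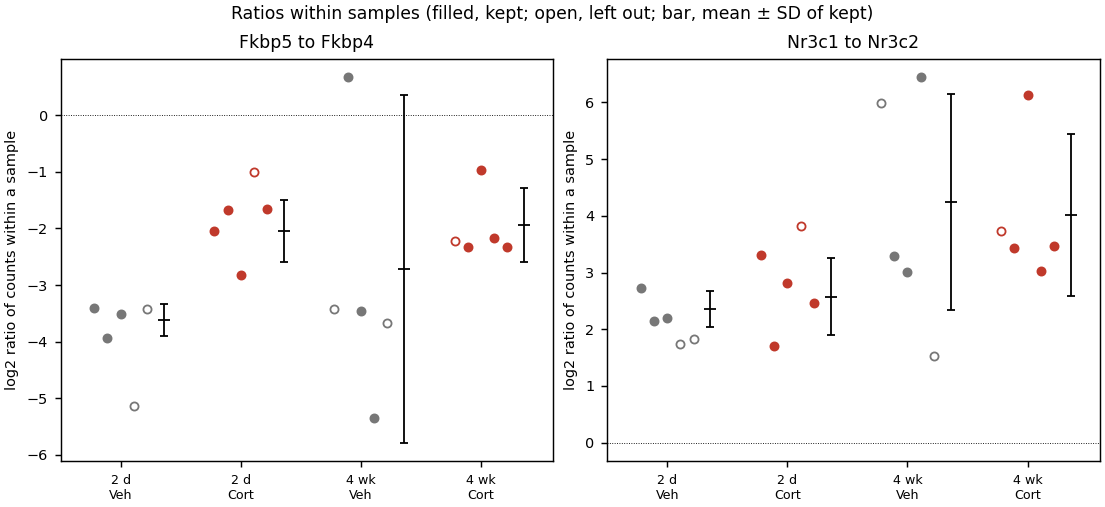
log2 ratio of counts within each library (y axis) for Fkbp5 to Fkbp4 and Nr3c1 to Nr3c2, for vehicle (grey) and Cort (red) at 2 days and 4 weeks; open symbols were left out by the study and bars are the mean ± SD of kept libraries. The 2 day Fkbp5 to Fkbp4 ratios of Cort, at -2.83 or higher, lie above those of vehicle, at -3.40 or lower.

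The wider machinery around these genes held no called gene in either dataset with edgeR (0.065% of all genes at 2 days and 0.0446% at 4 weeks), DESeq2 or edgeR on all 10 libraries. Unadjusted P values below 0.05 were held by 5.97% and 4.91% of all genes, beside which the counts in each list are to be read. In the receptor chaperone list (15 genes, HSP90 and its partners), the smallest P at 2 days belonged to Stub1, an E3 ligase of chaperone clients (log2 fold change 0.80, Padj = 0.921 with edgeR), and at 4 weeks to Dnajb1, an HSP40 (1.02, Padj = 0.99 with edgeR). None of the 14 coactivator genes had P below 0.05 at 2 days, where Ppargc1a led with 0.43, and 2 had at 4 weeks, in opposite directions: Med1 of the Mediator complex with -1.17 and Ppargc1a with 1.45 (both Padj = 0.99 with edgeR). The 9 corepressor genes had no P below 0.05 in either dataset, led by Tbl1x (0.32) at 2 days and Tbl1xr1 at 4 weeks (0.83), both parts of the complex that Ncor1 forms. Of the 8 genes of corticosteroid supply and inactivation, 5 were tested at 2 days and 3 at 4 weeks, led by the steroid 5-alpha-reductase Srd5a1 at 2 days (-1.98, Padj = 0.817 with edgeR) and Por at 4 weeks (-0.56).

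Genes known to be induced by glucocorticoids elsewhere mostly had higher Cort levels without passing the test. Of this list, 10 of 12 tested were higher at 2 days with a median log2 fold change of 0.37, beside 0.02 for all genes, and 9 of 11 were higher at 4 weeks with a median of 0.37, beside 0.04. The median absolute log2 fold change of all genes tested was 0.26 at 2 days and 0.51 at 4 weeks. The share of all genes with a higher Cort level is not given here. None of the list was called. The metallothionein Mt1 led at 2 days, with 105 ± 29.0 CPM in vehicle (SD, n = 3) and 163 ± 12.5 CPM in Cort (SD, n = 4), a log2 fold change of 0.63 (Padj = 0.546 with edgeR). It led again at 4 weeks with 1.45 (Padj = 0.99 with edgeR). Cdkn1a, named after its values were seen, was the other gene of the list with P below 0.05 at 2 days (1.48).

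Some genes followed Fkbp5 and Nr3c1 across libraries, given as a description over 10 libraries that share depth, dissection and treatment. Among 9529 genes in the 2 day dataset, log2 CPM was most like Fkbp5 for Lancl3 (Pearson r = 0.96), Dusp28 (0.94), Serpina3n (0.92), Man1c1 (0.92) and Arhgef3 (0.91). The genes most like Nr3c1 were Cog5 (0.93), Neu1 (0.90), Ccnl1 (0.90), Mdc1 (0.90) and Wtap (0.88). In the 4 week dataset (9354 genes) Fkbp5 was followed by Gnas (0.91), Lrp2 (0.90), Ccdc93 (0.89), Trim39 (0.89) and Tecr (0.87), and Nr3c1 by Klhl13 (0.92), Ttn (0.91), Mphosph9 (0.90), Vps13c (0.88) and Dvl1 (0.87). Spearman coefficients of these genes ran from 0.721 (Neu1) to 0.939 (Dusp28) at 2 days and from 0.79 (Dvl1) to 0.976 (Trim39) at 4 weeks. No gene appeared in both datasets' lists for the same member.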

How the data were processed

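RNA-seq was measured in 20 ARC libraries, 5 per group. The authors dissected the ARC by laser capture, amplified cDNA with the NuGEN Ovation V2 kit, mapped single-end 50 base reads to GRCm38 with Rsubread, and deposited raw featureCounts read counts per gene and, beside them, their mean normalized count per gene (signal) from DESeq2. The deposited fold change and p-value columns hold the authors' own comparison and were not used. Groups of count columns were read from the study's supplementary read table, since the sample titles carry replicate numbers and the columns do not. The authors' mean normalized count was recomputed from the 7 kept libraries within 1e-06 in all 16068 and 15430 nonzero genes, which checks which libraries were kept and cannot check which of them were vehicle or Cort. That each library came from a separate mouse is not stated, so p-values measure the spread between libraries.

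Counts were tested with edgeR 4.0.16 in R 4.3.3 (TMM, filterByExpr, quasi-likelihood test, Benjamini-Hochberg over all genes tested). Genes were called at Padj below 0.1, the limit that the study set on DESeq2 values. DESeq2 1.42.0, limma 3.58.1 (voom) and other filters, scalings and library sets were alternatives. Scripts were tested on simulated data. CPM used TMM over all 10 libraries of a dataset, log2 CPM a prior count of 2, and ratios 0.5 added counts. Exon lengths and coordinates came from GENCODE M21. The kit is not stated to keep strand, so antisense reads cannot be told apart.

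Members and gene lists were chosen with earlier results of these data known. Named genes were all members, the gene of smallest P in each list, and the 5 genes most like Fkbp5 and Nr3c1 with a mean of at least 10 CPM. Protein and Ncoa2 promoter sequences were not used here, nor was that of Nr3c1. A gene of the corepressor list and a gene of the oligodendrocyte list are not reported here and were left out of those lists.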

Additional observations from a re-analysis of the deposited data

Results flagged for a closer look

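In groups of 5 libraries, 4 values of the 10 genes lay far from the others by Dixon's test, among 40 groups tested, and chance alone marks about 1 in 20. Fkbp5 in 4 week vehicle C02 was at 164.7 CPM, with the nearest library at 20.2 CPM. Nr3c1 in 2 day vehicle C07, left out by the study, was at 225.7 CPM against 163.4 CPM for the nearest. Ncoa1 in 4 week vehicle C05, also left out by the study, was at 545.9 CPM against 224.5 CPM. Hsd11b1 in 4 week Cort C08 was at 0.714 CPM (3 counts) where the other 4 libraries had 0, so that any count would have been marked, and it says nothing beyond the limit of 3 counts.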

How the results depend on the processing

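No paired analysis was possible because the count columns carry no replicate number of the labels. Counts of called genes moved with the tool: at 2 days 8 became 52 (DESeq2), 24 (no filter), 2 (all 10 libraries) and 4 (limma voom, all 10), at 4 weeks 5 became 68, 9 and 1 (DESeq2, no filter, all 10), and for the difference between durations 2 became 67, 0 and 0 (DESeq2, all 10, limma voom). The 2 day member count was 0 in the edgeR test of kept libraries and 1, Fkbp5, with DESeq2, without the filter and over all 10. The 2 day Fkbp5 to Fkbp4 difference passed 0.05 over all 10 libraries (2.04, exact permutation p = 0.0079). Small effects turned sign over all 10 libraries and, where 2 values are given, with limma voom: at 2 days Nr3c2 (-0.48 and -0.28) and Ncoa1 (0.12 and 0.072), at 4 weeks Fkbp5 (0.19 and 1.01), Stip1 (0.28 and 0.10) and Ncoa1 (-0.021, all 10), and for the difference Nr3c2 (0.047, voom), Stip1 (0.05, all 10) and Ncoa1 (-0.13, all 10); the cause was not tested. Leaving out each kept library in turn gave 1 to 16 called genes at 2 days (lowest without C02, highest without C06), 0 to 10 at 4 weeks and 0 to 3 for the difference, and 0 to 1 called members at 2 days and 0 in the other fits. The 2 day log2 fold changes that turned sign ranged from -0.195 to 0.212 (Nr3c2), -1.16 to 0.34 (Hsd11b1), -0.24 to 0.064 (Fkbp4), -0.097 to 0.013 (Ptges3), -0.16 to 0.145 (Ncoa1) and -0.063 to 0.047 (Ncoa2). At 4 weeks they ranged from -1.05 to 0.076 (Nr3c2), -0.775 to 2.24 (Fkbp5, highest without C02) and -0.116 to 0.35 (Ptges3), and for the difference from -2.35 to 0.67 (Fkbp5, highest without 4 week C02) and -0.07 to 0.391 (Ptges3). Log2 ratios ranged from -0.548 to 2.46 for Fkbp5 to Fkbp4 at 4 weeks, and for Nr3c1 to Nr3c2 from -0.03 to 0.509 at 2 days and -0.935 to 0.869 at 4 weeks. All other member log2 fold changes kept their direction under each alternative. Hsd11b1 at 2 days, and Nr3c2 and Fkbp5 at 4 weeks, had fewer than 10 counts in some libraries, and these were not only the shallowest ones.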
